A study of Mus musculus with 16 samples.

Results

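The myeloid growth factors and receptors described here are 7 of the 32285 genes listed in each of 8 single-cell count matrices from B16 mouse melanomas. They were chosen by symbol, and all 7 were found in every matrix. Csf1 and Csf2 encode secreted growth factors, and Csf1r, Csf2ra, Csf2rb, Csf2rb2 and Csf3r encode receptor chains. C57BL/6J mice carried subcutaneous tumours grown from 1000000 control or B2m-null Bro4.1 B16 cells. B2m is the small chain that MHC class I molecules need to reach the cell surface. Treatment was 100 micrograms of agonistic anti-CD40 or of rat IgG2a isotype control, injected intraperitoneally 3 times (days 6, 9 and 12), with harvest on day 14. The sample labels place the B2m genotype on the mouse, whereas the series design places it in the implanted cells, which was followed. Tumour cells were enriched with CD45 beads and profiled by 10x Genomics 3' version 3 sequencing, so fibroblasts and melanoma cells are carry-over. The replicate is the mouse, told apart by its hashtag antibody within a pool. Of the 16 mice, 7 bore control tumours (5 given isotype, 2 given anti-CD40) and 9 bore B2m-null tumours (5 given isotype, 4 given anti-CD40). The 2 mice with control tumours under CD40 came from 1 pool, run on 2 lanes as technical replicates, so that pool and that group cannot be told apart.

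CSF-1 binds the receptor tyrosine kinase encoded by Csf1r and supports the survival and differentiation of monocytes and macrophages. GM-CSF, the product of Csf2, binds an alpha chain (Csf2ra) that pairs with a beta chain (Csf2rb) shared with the interleukin-3 and interleukin-5 receptors, and signals through JAK2 and STAT5. The mouse has a second beta chain, encoded by Csf2rb2, that serves interleukin-3 only, and Csf3r encodes the receptor of G-CSF, the growth factor of neutrophils.

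On GRCm38, Csf1 (ENSMUSG00000014599) lies at chr3:107741048-107760469 on the minus strand and Csf2 (ENSMUSG00000018916) at chr11:54247271-54249667 on the minus strand. Csf2ra (ENSMUSG00000059326) lies at chr19:61223957-61228429 on the minus strand and Csf3r (ENSMUSG00000028859) at chr4:126024550-126044440 on the plus strand. The beta chain genes are neighbours on chromosome 15, Csf2rb2 (ENSMUSG00000071714) at chr15:78282507-78305721 on the minus strand and Csf2rb (ENSMUSG00000071713) at chr15:78325752-78353847 on the plus strand. Csf1r is ENSMUSG00000024621 in the files.

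The beta chain sequences are shown because the genes are near copies, so that some reads may fit both. In the GENCODE M21 transcripts, the coding sequences of 2691 bases (Csf2rb) and 2637 bases (Csf2rb2) were 95.2% identical over 2631 aligned bases. Both lines give coding bases 2518 to 2637, 5′ to 3′ on the transcript strand. In Csf2rb2 the stretch ends with the stop codon. Capitals mark the 7 bases that differ.
Csf2rb: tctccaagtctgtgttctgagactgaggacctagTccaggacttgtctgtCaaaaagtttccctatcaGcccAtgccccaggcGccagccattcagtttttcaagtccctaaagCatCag
Csf2rb2: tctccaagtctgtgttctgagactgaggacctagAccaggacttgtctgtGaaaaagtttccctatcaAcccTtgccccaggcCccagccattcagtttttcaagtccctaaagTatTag
Reads of the 3' chemistry come mostly from the transcript end, and 1815 (Csf2rb) and 1810 (Csf2rb2) bases follow the stop codon. None of the 441 windows of 60 bases in the last 500 bases of either transcript occurred in the other (0%), against 14.6% of the windows along the whole Csf2rb transcript and 15.1% along that of Csf2rb2. How many reads lay in a stretch found in both, and how those reads were counted, is not recorded in the matrices.

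The 8 lanes held 116552 barcodes and 45985739 to 99264875 UMIs each (unique molecular identifiers, 1 per captured transcript). After filters, 91462 cells remained, and 73010 of them were assigned to the 16 mice, with 930 to 17866 cells and 3105136 to 71620809 UMIs per mouse. The assigned share ran from 34.1% of barcodes in B2m-null isotype replicate 1 to 91.0% in control CD40 replicate 2, and lane pairs shared 0.308 to 0.623% of barcodes. In melanoma-like cells, B2m stood at 188 to 462 CPM (counts per 1000000 UMIs) in the 4 lanes from B2m-null tumours and at 1098 to 2138 CPM in the 4 from control tumours. The lanes from B2m-null tumours were thus all lower, in the direction of the labels. Cells were clustered without the 7 genes and named by marker genes, and a name ending in -like stands for such a class. Levels below are CPM of the summed counts of 1 mouse and class, for mice with at least 20 cells of the class.

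Csf1 transcripts were highest in neutrophil-like and fibroblast-like cells. The level was 238 ± 99.1 CPM in neutrophil-like cells (SD, n = 10 mice), with a lowest value of 80.6, a median of 248 and a highest of 371. In fibroblast-like cells it was 229 ± 73.3 CPM (n = 8), from 115 to 362. Next came CD4 T-like cells at 84.1 ± 73.0 CPM (n = 11), Treg-like cells at 37.6 ± 42.7 CPM (n = 14) and CD8 T-like cells at 25.8 ± 15.6 CPM (n = 15). Macrophage-like cells, the largest class with 40079 cells, held 5.80 ± 2.85 CPM of Csf1 (n = 16). Spread was wide among T cells: CD4 T-like cells ran from 0 to 216 CPM. Within the 7 mice that had both classes, fibroblast-like cells exceeded CD4 T-like cells in 7 of 7. By an exact sign-flip test this step did not pass (adjusted p = 0.118), and 7 mice cannot go below the unadjusted p of 0.0156 found here.

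Csf2 was found mainly in T-like and NK-like cells. CD4 T-like cells held 68.1 ± 73.4 CPM (n = 11), with a lowest value of 0, a median of 47.0 and a highest of 242. NK-like cells held 43.0 ± 45.7 CPM (n = 14), from 0 to 178, and CD8 T-like cells 12.4 ± 19.1 CPM (n = 15), from 0 to 71.7. The order of NK-like over CD8 T-like cells did not pass (adjusted p = 0.144, exact sign-flip test). Gamma-delta T-like and Treg-like cells were at 3.70 ± 5.90 CPM (n = 12) and 3.55 ± 10.4 CPM (n = 14). Fibroblast-like cells, high for Csf1, were at 1.51 ± 3.54 CPM of Csf2 (n = 8), with no count in 6 of the 8 mice. The summed monocyte-like and macrophage-like cells held 31 Csf2 counts in all.

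To compare classes at equal depth, each cell was thinned to 1000 UMIs, leaving out shallower cells. The matrices hold no barcode under 500 UMIs, so the level of free RNA was not measured. A Csf1 UMI was then seen in 20.6% of fibroblast-like, 19.8% of neutrophil-like, 8.81% of CD4 T-like and 1.82% of CD8 T-like cells. Gamma-delta T-like cells, with a median of 1220 UMIs, gave the lowest share of the large classes, 0.128%, against 0.614% in monocyte-like and macrophage-like cells at a median of 3431 UMIs. For Csf2 the shares were 2.62% in CD4 T-like, 1.09% in NK-like and 0.362% in CD8 T-like cells, against 0.32% in gamma-delta T-like and 0.0173% in monocyte-like and macrophage-like cells.

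Among the receptors, Csf1r was highest in monocyte-like cells at 324 ± 54.4 CPM (n = 16), with a lowest value of 244, a median of 322 and a highest of 439. Macrophage-like cells followed at 219 ± 44.0 CPM (n = 16), from 160 to 310. Monocyte-like cells exceeded macrophage-like cells of the same mouse in 15 of 16 mice (adjusted p = 0.0040, exact sign-flip test). Csf1r stood at 138 ± 47.3 CPM in neutrophil-like cells (n = 10) and at 79.5 ± 25.3 CPM in cDC2-like cells (n = 15), and it was 40.3 ± 28.8 CPM in cDC1-like cells (n = 13).

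Csf2ra, the GM-CSF-specific chain, was spread over the myeloid and dendritic classes. It stood at 150 ± 32.1 CPM in monocyte-like (n = 16), 97.3 ± 38.6 in neutrophil-like (n = 10), 77.0 ± 13.0 in cDC2-like (n = 15), 66.2 ± 23.6 in cDC1-like (n = 13) and 52.5 ± 7.44 in macrophage-like cells (n = 16). No neighbouring pair in this order differed past the threshold.

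The shared beta chain Csf2rb was close to level over 4 classes. Neutrophil-like cells held 253 ± 96.1 CPM (n = 10), monocyte-like cells 231 ± 57.1 (n = 16), mature DC-like cells 223 ± 33.5 (n = 13) and cDC2-like cells 216 ± 36.0 (n = 15). Macrophage-like cells, at 101 ± 17.4 CPM, exceeded B-like cells of the same mouse in 12 of 12 mice (adjusted p = 0.0120, exact sign-flip test).

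Its copy Csf2rb2 had another order, led by pDC-like cells at 234 ± 70.3 CPM (n = 10, all under isotype), with a lowest value of 87.1, a median of 232 and a highest of 348. Neutrophil-like cells followed at 85.4 ± 21.9 CPM (n = 10) and cDC2-like cells at 74.8 ± 25.7 CPM (n = 15). Monocyte-like cells, at 60.8 ± 12.2 CPM, exceeded macrophage-like cells, at 40.3 ± 6.85 CPM, in 16 of 16 mice (adjusted p = 0.0015). Csf2rb in pDC-like cells was 155 ± 44.3 CPM, a level inside the range of the other dendritic classes. By an exact sign-flip test the step from pDC-like to neutrophil-like cells in Csf2rb2, higher in 5 of the 5 mice that had both, did not pass (adjusted p = 0.211; 5 mice cannot go below p = 0.0625).

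Csf3r marked neutrophil-like cells, at 342 ± 148 CPM (n = 10), with a lowest value of 188, a median of 297 and a highest of 667. It exceeded the level in monocyte-like cells, 61.3 ± 15.3 CPM (n = 16), in 10 of 10 mice that had both (adjusted p = 0.0383), and these exceeded macrophage-like cells, at 22.8 ± 6.59 CPM, in 16 of 16 (adjusted p = 0.0015). Over the 7 genes, 98 pairs of neighbouring classes were compared by exact sign-flip tests, and 5 passed after Benjamini-Hochberg adjustment. Those 5 are the pairs given above with adjusted p-values of 0.0383 or less.

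**Figure D1:**
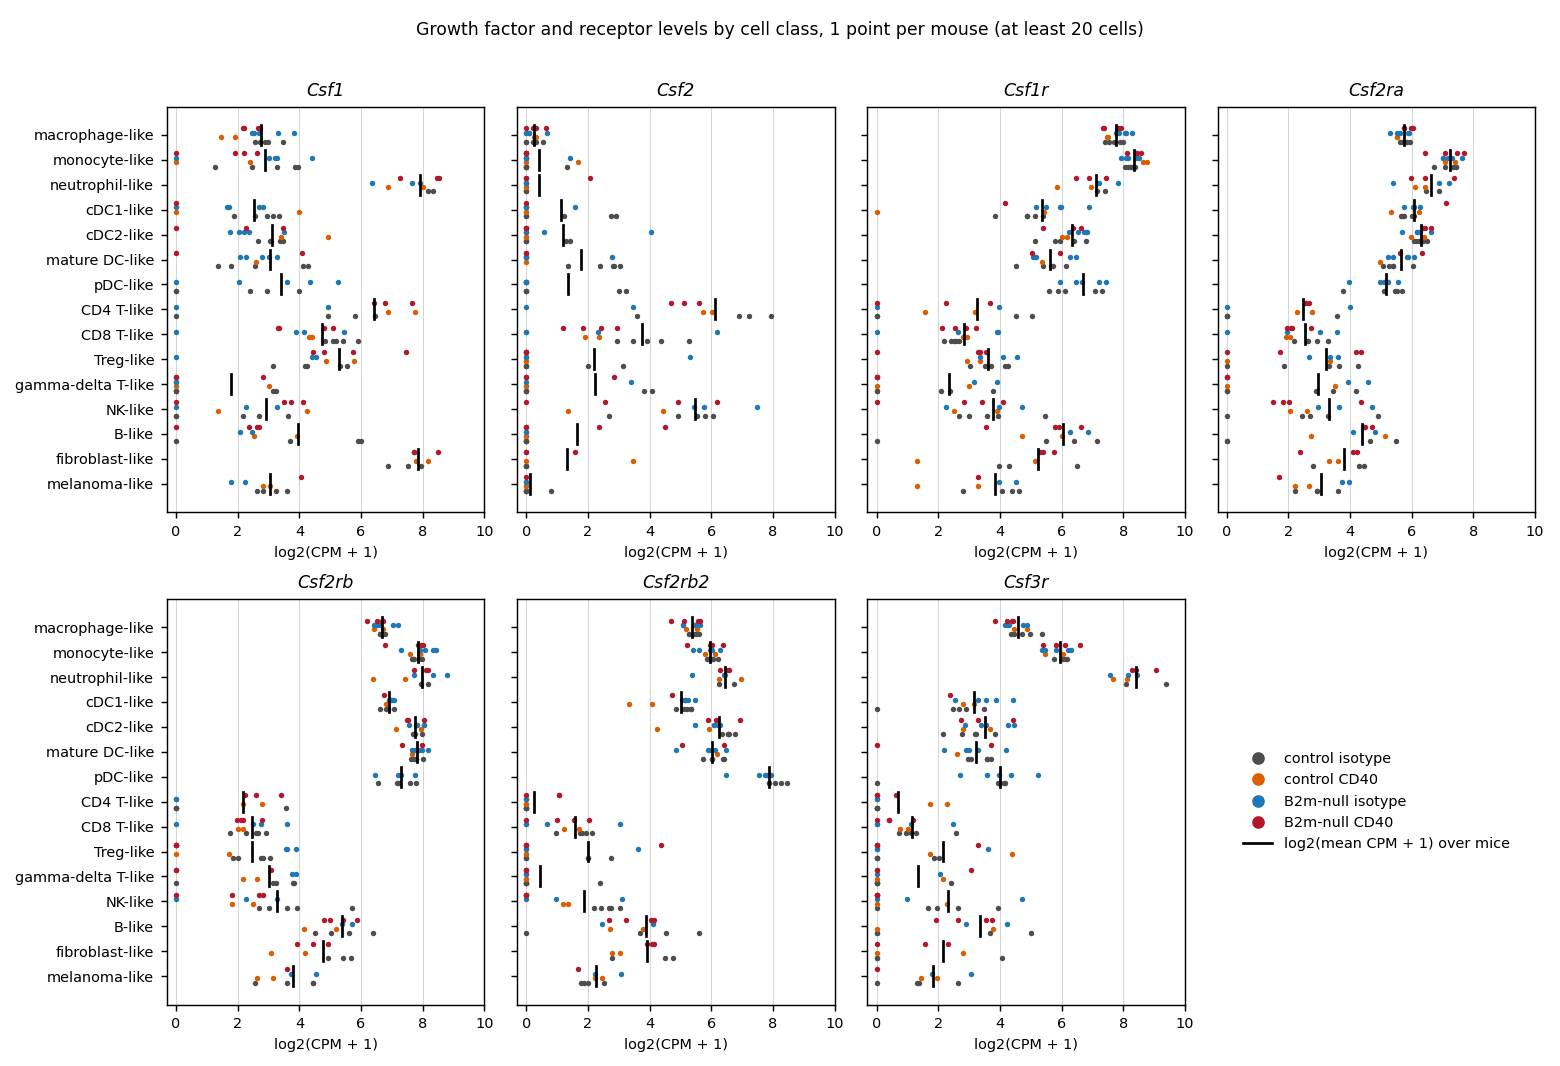
Level of each gene as log2(CPM + 1) on the horizontal axis for 15 cell classes, with 1 point per mouse coloured by group and a black bar at log2 of the mean CPM plus 1. Csf1 stands out in neutrophil-like and fibroblast-like cells, Csf2 in CD4 T-like and NK-like cells, Csf2rb2 in pDC-like cells and Csf3r in neutrophil-like cells.

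Genes with the most similar pattern over 16 classes were taken by Pearson's r of log2(mean CPM + 1) among 11844 genes. The points share their mice and lanes, so r is a description. For Csf1r these were Clec4a3 (r = 0.988), Clec4a1, Fcgr2b, Ctsc and Milr1, and for Csf2ra they were Rasgrp4 (r = 0.973), Card9, Krt80, Il1b and 1600010M07Rik. For Csf2rb they were Spi1 (r = 0.969), Pira2, Sgk3 and Cd300c2, and for Csf2rb2 they were Fam174a (r = 0.945), Sh2b2, Cds1, Gapt and Lmo2. Csf3r was most similar to Ccr1 (r = 0.956), Mmp8, Cxcl2, Trem1 and Cd14. The growth factors had looser matches, Mmp9 (r = 0.836), Rpl39l, Dhrs7, Ptgfrn and Tnfsf13b for Csf1, and Klhl28 (r = 0.923), Sytl3, Crot, Ly6g5b and Ntrk3 for Csf2.

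The main question put to the groups was whether the CD40 antibody, or loss of B2m in the tumour, went with other levels of these genes. In monocyte-like and macrophage-like cells together, 6 of the 7 genes had enough counts to be tested; Csf2 did not. Under CD40, Csf1 fell in control tumours and Csf2ra rose in B2m-null tumours, and the other 4 genes passed no test in any of the 4 comparisons. All changes are log2 values from a fit over all 12234 genes tested, with p-values adjusted over all of them. Monocyte-like cells made up 9.89% of kept cells in control tumours under isotype and 1.81% under CD40, and 9.34% and 2.80% in B2m-null tumours. Macrophage-like cells made up 47.2% and 38.2%, and 52.5% and 37.7%, in the same order. The part of this shift in the levels of the joined cells was not tested.

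Csf1 stood at 7.08, 5.28, 9.71, 6.71 and 6.23 CPM in the 5 mice with control tumours under isotype and at 2.80 and 1.71 CPM in the 2 under CD40. In B2m-null tumours it was 5.42, 4.52, 9.73, 12.7 and 4.63 CPM under isotype and 3.50, 3.47, 5.31 and 5.53 CPM under CD40. The groups did not overlap in control tumours and overlapped in B2m-null tumours. Group means were 7.0 ± 1.66 and 2.25 ± 0.771 CPM in control tumours, a log2 change of -1.64 (SE 0.42, adjusted p = 0.0103). In B2m-null tumours they were 7.40 ± 3.65 and 4.45 ± 1.12 CPM, a log2 difference of -0.50 (SE 0.31, adjusted p = 0.244). The difference between these CD40 effects was 1.14 (SE 0.52, adjusted p = 0.138), so they were not shown to differ. Csf1 was the only one of 6 genes called in control tumours, where 21.3% of all genes tested were called.

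These Csf1 levels are low, near the 2.46 CPM of gamma-delta T-like cells and the 6.50 CPM of NK-like cells. After thinning to 1000 UMIs, the share of monocyte-like and macrophage-like cells with a Csf1 UMI was 0.808% in control tumours under isotype and 0.202% under CD40, and 0.782% and 0.498% in B2m-null tumours. Unthinned shares were 2.98% and 0.71%, and 2.78% and 2.39%. The call was lost without control isotype replicate 1 (log2 -1.50, adjusted p = 0.0586) and without mouse 2 of the control CD40 pool, which leaves 1 control CD40 mouse (log2 -1.26, adjusted p = 0.202). In the same cells of control tumours, summed markers of neutrophils and of 3 T cell classes stood higher under CD40 without overlap: the 7 neutrophil markers, all with counts, were at 5.56 to 14.0 CPM under isotype and 43.6 to 53.2 CPM under CD40, and the 6 CD4 T markers at 8.92 to 17.1 and 20.1 to 33.0 CPM. The 5 CD8 T markers went from 7.41 to 14.9 CPM up to 27.7 to 43.2 CPM, and the 6 gamma-delta T markers, Il17a at 0, from 1.52 to 2.55 CPM up to 5.35 to 8.62 CPM. These T cell lists are not separate: the CD4 T and CD8 T lists share Cd3e, Cd3d and Trac, and Cd3e is also a gamma-delta T and a Treg marker. The 6 Treg markers overlapped, at 12.0 to 23.1 CPM under isotype and 17.5 to 27.0 CPM under CD40. The 6 fibroblast markers, at 11.1 to 11.2 CPM under CD40, lay inside their isotype range of 5.59 to 16.9 CPM. The 6 cDC2 markers were lower without overlap, at 356 to 530 CPM under isotype and 202 to 286 CPM under CD40. The part of these sets in the Csf1 level was not tested.

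Csf2ra in the same cells stood at 58.6, 72.5, 62.9, 52.4 and 61.7 CPM in control tumours under isotype and at 48.8 and 46.3 CPM under CD40. In B2m-null tumours it was 49.9, 64.6, 56.8, 64.0 and 40.3 CPM under isotype and 53.0, 55.1, 66.2 and 67.6 CPM under CD40. Of these CD40 values, the 2 lower came from pool 1 and the 2 higher from pool 2, a grouping that the fit did not model. The control groups did not overlap, and the B2m-null groups did. In B2m-null tumours the means were 55.1 ± 10.2 and 60.5 ± 7.51 CPM, and the fitted log2 change was 0.37 (SE 0.13, adjusted p = 0.0420). It was the only one of 6 genes called there, where 32.3% of all genes were called. In control tumours the means were 61.6 ± 7.32 and 47.5 ± 1.71 CPM, with a log2 difference of -0.24 (SE 0.16, adjusted p = 0.299). The difference of the CD40 effects was 0.61 (SE 0.21, adjusted p = 0.0535). Neutrophil-like cells held more Csf2ra, 97.3 CPM, as did monocyte-like cells by themselves, 150 CPM. In the B2m-null monocyte-like and macrophage-like cells the 7 neutrophil markers, all with counts, summed to 11.1 to 41.1 CPM under isotype and 37.9 to 81.7 CPM under CD40, and the 5 CD8 T markers to 6.33 to 11.6 and 16.4 to 27.6 CPM, the latter without overlap. The 6 CD4 T markers also rose without overlap, from 9.19 to 14.9 up to 15.9 to 23.2 CPM. The 6 melanoma markers fell without overlap, from 89.4 to 114 down to 56.7 to 67.8 CPM. The part of these sets in the Csf2ra level was not tested.

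The Csf2ra call in B2m-null tumours rests on the scaling between libraries. With library totals alone the log2 change was 0.17 (adjusted p = 0.329), the median of all genes moved to -0.21, and the calls over all genes went from 1973 higher and 1979 lower to 944 higher and 3745 lower. On the scaled CPM of the fit, Csf2ra was 46.3, 58.8, 53.3, 62.1 and 38.3 under isotype and 55.6, 57.7, 72.6 and 75.3 under CD40, so the groups overlapped on that scale too. Without B2m-null CD40 replicate 2 the log2 change was 0.15 (adjusted p = 0.568). The call was also lost, with log2 changes of 0.34 to 0.41, when either B2m-null isotype pool or control isotype replicate 2 was left out (adjusted p = 0.0523 to 0.116). Among single mice it was lost without mouse 1 or 2 of B2m-null CD40 pool 2, mouse 1 or 3 of B2m-null isotype pool 1, mouse 2 of B2m-null isotype pool 2, mouse 1 or 3 of control isotype pool 1, or mouse 2 of control isotype pool 2 (log2 0.26 to 0.38, adjusted p = 0.0516 to 0.151).

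Csf1r, the receptor by which these cells read CSF-1, passed no comparison. It was 179, 245, 191, 212 and 258 CPM in control tumours under isotype and 187 and 179 under CD40, and 234, 306, 223, 276 and 269 in B2m-null tumours under isotype and 166, 166, 246 and 230 under CD40. All 4 comparisons overlapped, with log2 differences from -0.17 to 0.21 and adjusted p-values from 0.331 to 0.670. With library totals alone, Csf1r in B2m-null tumours was lower under CD40 by a log2 value of -0.37 (adjusted p = 0.0401).

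Both beta chains had small differences. Csf2rb means were 110 ± 7.55, 96.2 ± 13.7, 118 ± 32.2 and 95.6 ± 15.9 CPM (control tumours under isotype and CD40, then B2m-null tumours likewise), with log2 differences from -0.09 to 0.04. The 95% intervals of its CD40 effects ran from -0.49 to 0.33 in control and from -0.43 to 0.24 in B2m-null tumours. Csf2rb2 log2 differences ran from -0.14 to 0.16, and its CD40 intervals from -0.39 to 0.42 and from -0.18 to 0.50. For Csf3r the differences ran from -0.40 to -0.06, with means of 30 ± 9.02, 25.3 ± 5.16, 23.5 ± 6.62 and 19.1 ± 2.73 CPM.

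Between genotypes, none of the 6 genes was called by edgeR or DESeq2 in monocyte-like and macrophage-like cells. Of all genes, 8.13% were called under isotype and 11% under CD40. An unadjusted p under 0.05 was found for 3045 and 3440 of all 12234 genes. Of the 6 genes, none had one under isotype, and under CD40 there were 2, Csf1 (log2 1.18, SE 0.43, adjusted p = 0.0879) and Csf2ra (log2 0.37, SE 0.17, adjusted p = 0.154). For both of them every mouse with a B2m-null tumour under CD40 lay above the 2 with control tumours. How many of all genes had groups without overlap was not counted, so this is a description of the values. None of the 6 differences of the CD40 effects was called by edgeR, where 16.9% of all genes were. An unadjusted p under 0.05 was found for 2 of the 6, and for 3920 of all 12234 genes. DESeq2 called 1 of the 6, and its share over all genes is not given here.

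**Figure D2:**
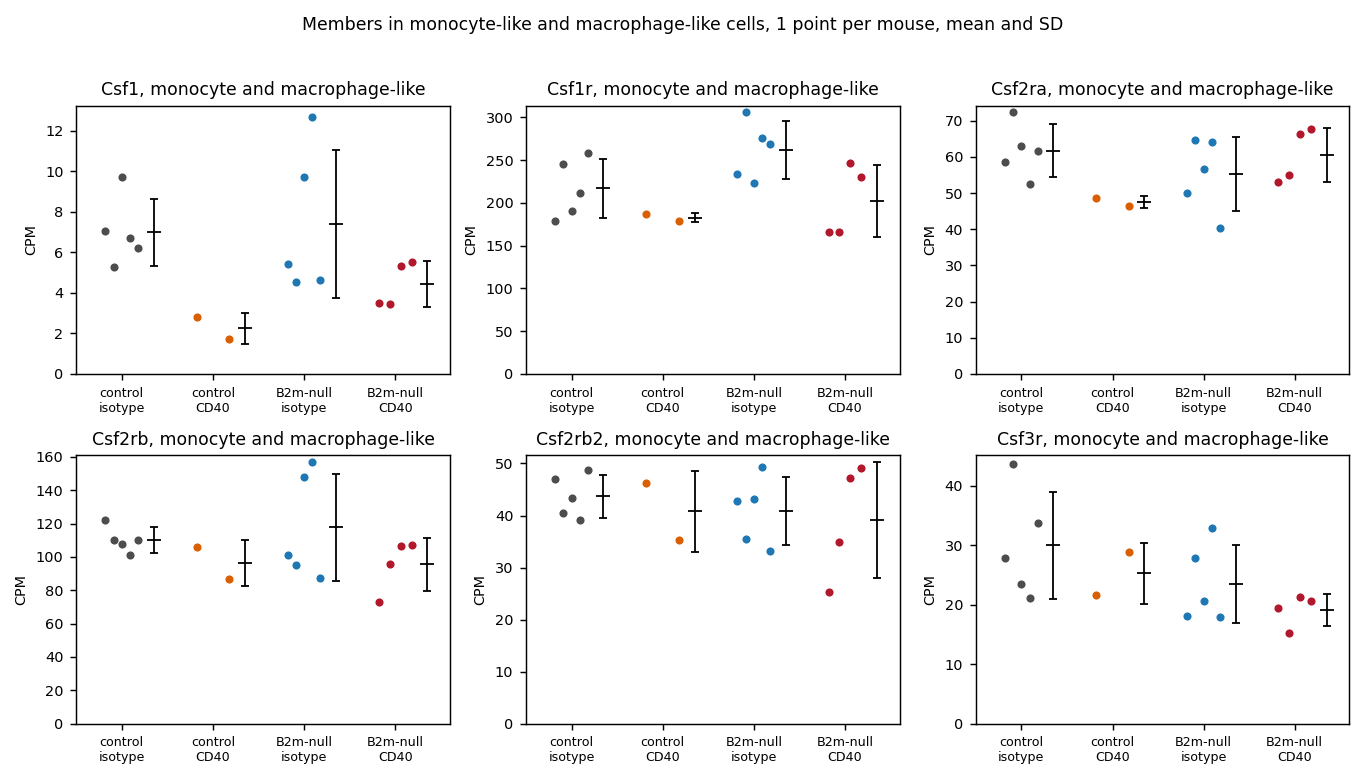
CPM of the 6 genes tested in monocyte-like and macrophage-like cells by group, 1 point per mouse, with the mean and SD beside the points. Both Csf1 points of control tumours under CD40 lie below every other point of that panel, and the Csf2ra points of B2m-null tumours overlap between antibodies.

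Each class was also fitted by itself. Over 14 classes and 4 comparisons, 171 tests of the 7 genes were made and 3 passed (1.75%), against 7.24% of the tests of all genes pooled over these classes and comparisons. An unadjusted p under 0.05 was found in 28 of the 171 (16.4%), against 19.1% over all genes. In macrophage-like cells alone, Csf1 fell under CD40 in control tumours by 1.60 on the log2 scale (SE 0.44, adjusted p = 0.0149), where 22% of all genes were called. There Csf2ra rose in B2m-null tumours by a log2 value of 0.44 (SE 0.12, adjusted p = 0.0091), where 32.7% were called. Its mean was 49.7 and 57.8 CPM under isotype and CD40 in B2m-null tumours, and 54.2 and 45.2 CPM in control tumours. In these cells the difference of the CD40 effects on Csf2ra passed, at 0.58 (SE 0.19, adjusted p = 0.0452), as did 17.3% of all genes. Fits with mice or pools left out were not run for this class alone.

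Further classes gave values just short of the threshold. In monocyte-like cells Csf1r was 265, 310, 298, 282 and 334 CPM in control tumours under isotype and 402 and 439 CPM under CD40, without overlap, a log2 difference of 0.51 (SE 0.16, adjusted p = 0.0524, with 6.26% of all genes called). In cDC2-like cells Csf2rb2 was 92.1, 93.9, 80.4, 108 and 91.5 CPM under isotype and 17.7 and 59.1 CPM under CD40, a log2 difference of -0.98 (SE 0.30, adjusted p = 0.0698, with 2.99% of all genes called). The 135 cDC2-like cells of control tumours under CD40 made up 0.533% of kept cells, against 1063 cells and 4.64% under isotype.

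**Figure D3:**
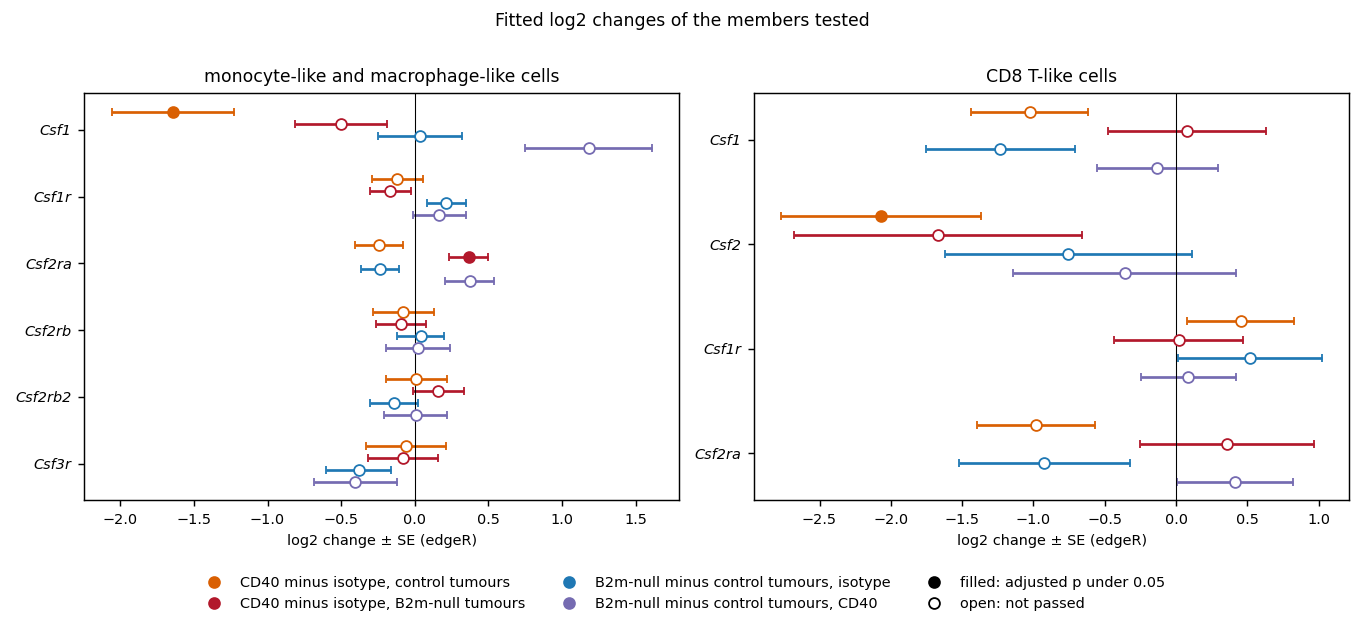
Fitted log2 change on the horizontal axis, with its SE, for each gene tested in monocyte-like and macrophage-like cells and in CD8 T-like cells, coloured by comparison and filled where the adjusted p is under 0.05. Only Csf1 and Csf2ra on the left and Csf2 on the right have a filled point.

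Macrophage-like cells were divided into 6 clusters, named here by 2 of their leading genes. Their shares differed between groups, which was not tested. The H2-M2 and Gpnmb cluster made up 41.9% of macrophage-like cells in control tumours under CD40, a single pool, and 5.00% under isotype, against 10.2% and 3.91% in B2m-null tumours. The Mmp13 and Mmp12 cluster made up 12.2% and 28.8% in control tumours and 31.1% and 24.0% in B2m-null tumours, in the same order. Each cluster was therefore also fitted by itself, a step added after the data had been seen. In the Mmp13 and Mmp12 cluster, Csf1 was 13.4, 13.4, 12.2, 15.4 and 13.7 CPM in control tumours under isotype and 3.89 and 2.74 CPM under CD40. It fell there by 1.98 on the log2 scale (SE 0.44, adjusted p = 0.0042), where 12% of all genes were called. Csf2rb and Csf2rb2 fell in the same cluster, by 0.62 (adjusted p = 0.0150) and 0.58 (adjusted p = 0.0268). In the Ppbp and Ccl24 cluster Csf1 differed by -2.80 (SE 1.31, adjusted p = 0.295), and in the other 4 it was too low to test.

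For Csf2ra in B2m-null tumours, the fitted CD40 effect was above 0 in each of the 6 clusters, and 2 passed. In the Fcrls and Stab1 cluster it was 41.5, 46.7, 32.9, 35.9 and 30 CPM under isotype and 58.5, 46.6, 62.5 and 70.6 CPM under CD40, with 1 CD40 mouse level with the highest isotype mouse. The log2 change was 0.89 (SE 0.15, adjusted p = 6.7e-05), where 30% of all genes were called. In the Mmp13 and Mmp12 cluster it was 0.45 (SE 0.14, adjusted p = 0.0243), where 18.2% were called. The other 4 clusters gave 0.30 to 0.98 with adjusted p-values of 0.0748 to 0.259, and 21%, 16.4%, 9.01% and 13.1% of all genes were called in them. In control tumours the 6 values ran from -0.18 to 0.21, and edgeR called none, nor was any unadjusted p under 0.05. Fewer genes were called there in each cluster, at 6.82% in the Fcrls and Stab1 cluster, 12% in the Mmp13 and Mmp12 cluster and 3.9%, 12.4%, 5.47% and 4.08% in the other 4, in the same order. For the difference of the CD40 effects, edgeR called none of the genes described here in any of the 6 clusters. Over all genes it called 351 higher and 340 lower of 10355 in the Fcrls and Stab1 cluster, and 132 higher and 126 lower of 10111 in the Mmp13 and Mmp12 cluster. The CD40 effects were thus not shown to differ between genotypes within a cluster.

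Other calls within clusters were few. Csf2ra was higher in B2m-null than in control tumours under CD40 in the H2-M2 and Gpnmb cluster, by a log2 value of 1.03 (SE 0.21, adjusted p = 0.0073), where 3% of all genes were called. Csf1r was higher in B2m-null tumours under isotype in the Fcrls and Stab1 cluster (log2 0.36, adjusted p = 0.0412, with 11.2% of all genes called), and Csf2rb fell under CD40 in B2m-null tumours in the Vcam1 and C1qa cluster (log2 -0.55, adjusted p = 0.0408, with 13.1% called).

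**Figure D4:**
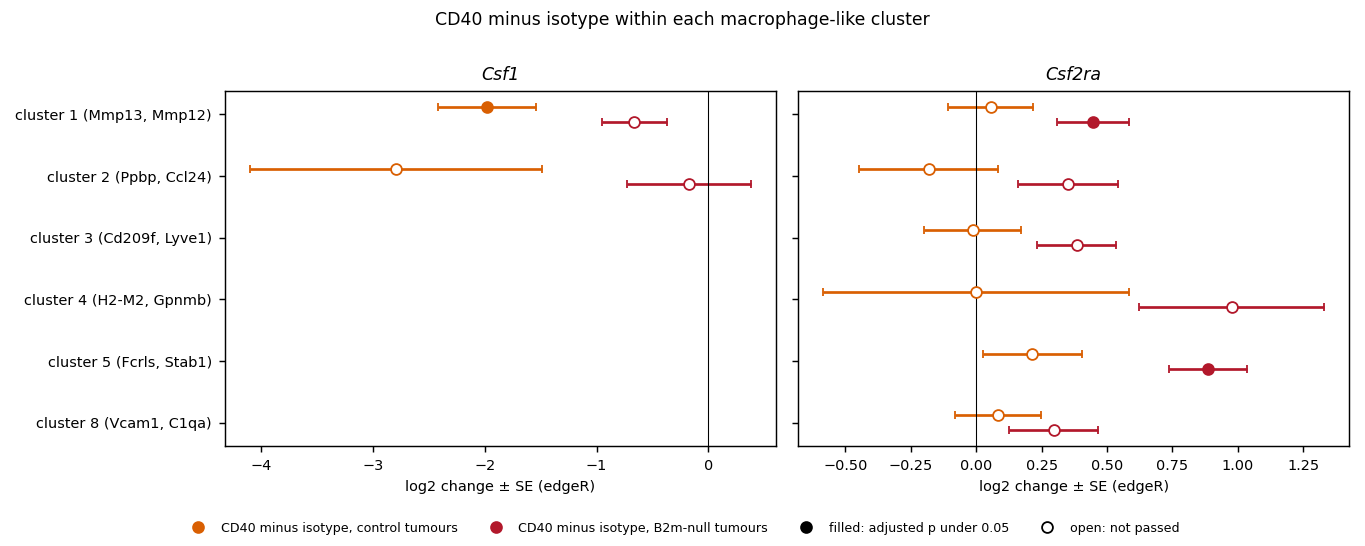
Log2 change under CD40, with its SE, within macrophage-like clusters of control and B2m-null tumours, for Csf1 (left, the 2 clusters in which it could be tested) and Csf2ra (right, all 6 clusters), filled where the adjusted p is under 0.05. The Csf2ra points of B2m-null tumours run from 0.30 to 0.98, and those of control tumours lie near 0. The difference of the CD40 effects between genotypes was not called in any of these clusters.

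A cluster of myeloid cells led by Nos2 and Ly6i was given no class name. It made up 11.3% of kept cells in B2m-null tumours under CD40, 1.45% in control tumours under CD40, 0.171% in B2m-null tumours under isotype and 0.590% in control tumours under isotype. Its receptor levels were 281 ± 68.2 CPM for Csf1r, 93.9 ± 28.5 for Csf2ra, 235 ± 93.8 for Csf2rb and 96.1 ± 32.0 for Csf2rb2 (n = 11). Csf2ra in it was 81.1, 89.9, 133 and 152 CPM in the 4 mice with B2m-null tumours under CD40 and 100 and 94.1 CPM in the 2 with control tumours under CD40, inside the range of the B2m-null mice. Under isotype it was 71.3 CPM in 1 mouse with a B2m-null tumour and 92.4, 48.7, 97.5 and 73.0 CPM in 4 with control tumours. Within this cluster edgeR called 0 of 5 genes between genotypes under CD40 and 0 of 5 under CD40 in control tumours, where 2.63% and 1.92% of all genes were called. None of them had an unadjusted p under 0.05, against 1009 and 738 of all 6456 genes, and DESeq2 was not run there. With this cluster joined to the monocyte-like and macrophage-like cells, Csf2ra in B2m-null tumours rose by 0.55 (adjusted p = 0.0029) and Csf2rb2 by 0.41 (adjusted p = 0.0340), where 35.1% of all genes were called. The difference of the CD40 effects on Csf2ra was then 0.73 (SE 0.20, adjusted p = 0.0194), 18% of all genes being called.

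A further cluster of 5179 cells, also without a class name, held both T cell and myeloid UMIs in 65.4% of its cells. It made up 8.94% of kept cells in control tumours under CD40 and 5.87% in B2m-null tumours under CD40, and 4.58% and 2.86% under isotype. Csf2ra in it was 48.5, 48.3, 62.8 and 72.4 CPM in B2m-null tumours under CD40 and 28.4 and 41.1 CPM in control tumours under CD40, and the groups did not overlap. It was higher in B2m-null tumours by a log2 value of 0.68 (SE 0.20, adjusted p = 0.0372), the only one of the 7 genes called there, where 6.53% of all genes were called. The part of this mixture in the Csf2ra levels was not tested.

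In CD8 T-like cells, 4 of the 7 genes could be tested, and Csf2 fell under CD40 in control tumours. It stood at 19.5, 37.7, 14.2, 9.99 and 6.62 CPM under isotype and at 2.78 and 4.15 CPM under CD40, without overlap. The means were 17.6 ± 12.2 and 3.46 ± 0.967 CPM, a log2 change of -2.07 (SE 0.70, adjusted p = 0.0285). This was 1 of 4 genes called, in a comparison where 39.9% of all genes were called. In B2m-null tumours Csf2 was 71.7, 0, 4.04 and 0 CPM under isotype and 6.69, 4.38, 1.3 and 2.57 CPM under CD40. The highest of these came from 10 counts in 48 cells. The log2 difference was -1.67 (SE 1.01, adjusted p = 0.330), and the CD40 effects differed by 0.40 (SE 1.21, adjusted p = 0.896).

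After thinning to 1000 UMIs, a Csf2 UMI was seen in 2.02% of CD8 T-like cells of control tumours under isotype and in 0.151% under CD40, against 0.32% of gamma-delta T-like cells over all groups. Summed markers of other classes in the control CD8 T-like cells were higher under CD40 without overlap: the 6 CD4 T markers went from 1724 to 2053 CPM up to 2447 to 2550 CPM, the 6 NK markers from 273 to 340 up to 437 to 535 CPM and the 6 gamma-delta T markers from 327 to 391 up to 547 to 631 CPM. Of these, 3 CD4 T markers and 1 gamma-delta T marker are also CD8 T markers. The 6 Treg markers, of which Cd3e is also a CD8 T marker, went from 920 to 1145 up to 1196 to 1200 CPM. Markers of B cells (27.2 to 52.8, then 58.4 to 63.4 CPM) and cDC2 (30.7 to 45.6, then 63.8 to 67.5 CPM) rose without overlap as well. So did those of neutrophils (0.945 to 10.05, then 10.07 to 12.9), melanoma (5.90 to 20.1, then 28.8 to 37.3) and endothelium (11.3 to 22.6, then 26.8 to 33.3). The 7 mature DC markers were lower without overlap, at 57.7 to 98.0 CPM under isotype and 43.1 to 56.3 CPM under CD40. The part of all these sets in the Csf2 level was not tested.

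The make-up of the CD8 T-like class differed between groups, which was not tested. A cluster led by Gzmf and Ifng held 77.3% of the class in control tumours under isotype and 61.3% in B2m-null tumours under isotype. A Gzmk-led cluster held 84.9% and 72.9% under CD40. Csf2 belonged mostly to the Gzmf and Ifng cluster, where it was 18.8 ± 13.5 CPM under isotype and 10.0 ± 7.36 CPM under CD40 in control tumours, a log2 difference of -0.58 (SE 0.68, adjusted p = 0.591). In the Gzmk cluster it was 2.15 and 0.811 CPM, too low to test. So the fall seen in the whole class was not called within either cluster. Without control isotype replicate 1 the log2 change was -1.16 (adjusted p = 0.359). The call was also lost, with a change near that of all samples, without control CD40 replicate 2 (log2 -1.92, adjusted p = 0.0670), mouse 1 of control isotype pool 1 (log2 -1.92, adjusted p = 0.0664) or either control CD40 mouse (log2 -1.85 and -2.42, adjusted p = 0.148 and 0.171).

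Csf1 in CD8 T-like cells was 33.2, 35.2, 27.2, 59.3 and 41.6 CPM in control tumours under isotype and 20.2 and 18.8 CPM under CD40. These did not overlap, and the log2 difference of -1.03 did not pass (SE 0.41, adjusted p = 0.0568). In the other 3 comparisons edgeR and DESeq2 called none of the 4 genes, where 9.41% (CD40 in B2m-null tumours), 0.295% (genotype under isotype) and 12.1% (genotype under CD40) of all genes were called by edgeR. At an unadjusted p under 0.05 there was 1, Csf1 between genotypes under isotype (log2 -1.23, SE 0.52, adjusted p = 0.378). Over all 9834 genes tested there were 2483, 1098 and 2616 in the same order of comparisons. The receptor transcripts tested here, Csf1r and Csf2ra, were at 6.12 and 4.74 CPM, below every myeloid class. The 8 macrophage markers, all with counts, summed to 108 to 274 CPM under isotype and 167 to 222 CPM under CD40 in the control CD8 T-like cells, and their part in these receptor levels was not tested.

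Among the other sources, CD4 T-like cells had Csf1 values of 86.4, 29.4, 54.9 and 0 CPM in control tumours under isotype and 117 and 216 CPM under CD40, and of 29.7 and 0 CPM against 200, 84.8 and 108 CPM in B2m-null tumours. The CD40 groups lay above the isotype groups in both genotypes. Neither log2 difference passed, 2.15 (adjusted p = 0.155) and 2.19 (adjusted p = 0.193), in comparisons where 3.9% and 9.06% of all genes were called.

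Csf2 in CD4 T-like cells was 242, 147, 11 and 118 CPM in control tumours under isotype and 52.5 and 63.8 CPM under CD40. These overlapped (log2 -0.89, SE 0.45, adjusted p = 0.337). In B2m-null tumours it was 9.90 and 0 CPM under isotype and 25, 33.8 and 47.0 CPM under CD40, without overlap and with the higher values under CD40 (log2 2.22, SE 1.04, adjusted p = 0.199). The difference of the CD40 effects was 3.11 (SE 1.10, adjusted p = 0.269). Under isotype the B2m-null mice lay below the control mice (log2 -3.65, SE 0.98, adjusted p = 0.634), in a comparison where 0% of all genes were called. None of these differences passed. At an unadjusted p under 0.05 there were 2 of the 2 genes tested, Csf1 and Csf2, under CD40 in B2m-null tumours, against 1133 of all 4844 genes. It was 1 of 2 under CD40 in control tumours, between genotypes under isotype, and for the difference of the CD40 effects. Over all genes the counts there were 804, 228 and 547. Between genotypes under CD40 it was 0 of 2, against 1150 of all genes. NK-like cells held 45.9, 5.42, 28.9, 54.4 and 66.2 CPM in control tumours under isotype and 1.56 and 20.4 CPM under CD40, which overlapped (log2 -1.87, adjusted p = 0.341, with 6.43% of all genes called). Those of B2m-null tumours held 178, 42.6 and 53.4 CPM under isotype and 4.86, 0, 29.0 and 71.3 CPM under CD40, which also overlapped (log2 -0.63, adjusted p = 0.731, with 8.83% of all genes called).

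Neutrophil-like cells had Csf1 at 285 and 323 CPM in control tumours under isotype, 257 and 116 under CD40, 80.6, 240 and 201 in B2m-null tumours under isotype and 154, 351 and 371 under CD40. Csf3r in them was 274 and 667, 276 and 202, 188, 345 and 283, and 340, 310 and 530 CPM in the same order of groups. edgeR called neither gene in any of the 4 comparisons, but in this class it called few genes at all: 0.862% and 0.396% under CD40 in control and B2m-null tumours, and 0% and 0.35% between genotypes under isotype and CD40. Csf3r had an unadjusted p of 0.0421 under CD40 in control tumours and 0.0418 between genotypes under CD40, and the other 6 values of these genes were over 0.05. In those comparisons 519 and 465 of all 4291 genes had an unadjusted p under 0.05. Fibroblast-like cells had Csf1 at 246, 115 and 184 CPM in control tumours under isotype, 290 and 217 under CD40 and 209, 362 and 210 in B2m-null tumours under CD40, which overlapped; no mouse with a B2m-null tumour under isotype had 20 such cells.

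**Figure D5:**
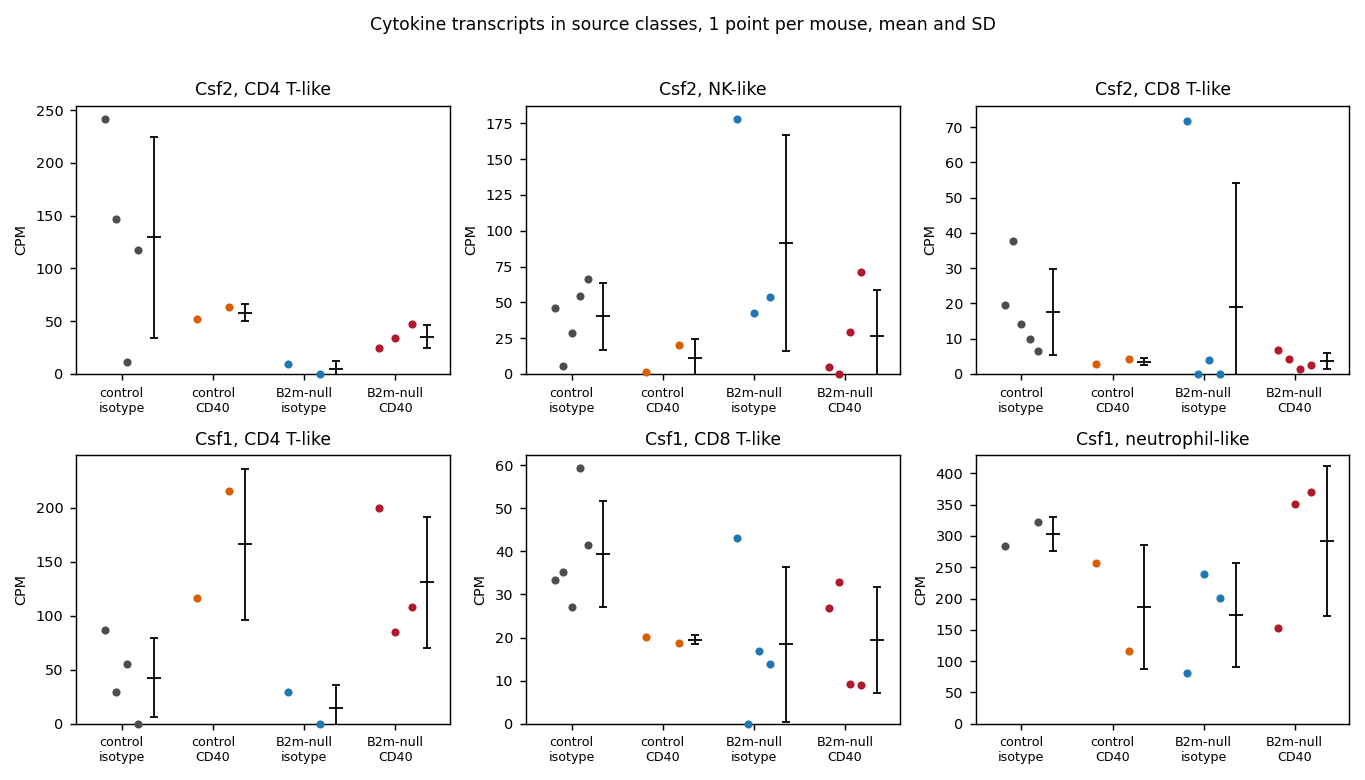
CPM of Csf2 (top) and Csf1 (bottom) in their source classes by group, 1 point per mouse, with the mean and SD beside the points. Csf2 in CD8 T-like cells of control tumours is lower in both CD40 mice than in all 5 isotype mice, and 1 B2m-null isotype mouse at 71.7 CPM stands apart.

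A list of 33 further genes of the pathway (other ligands and receptors, JAK and STAT proteins, feedback inhibitors, myeloid transcription factors and signalling proteins) was read in the same fits. In monocyte-like and macrophage-like cells 28 were tested. Under CD40 in control tumours 2 were called higher and 2 lower, or 14.3% against 21.3% of all genes, with a median log2 change of 0.06 against -0.01. The largest were Flt3, the receptor of Flt3 ligand, at -2.61 (SE 0.76, adjusted p = 0.0236), the interleukin-3 receptor alpha chain Il3ra at 0.78 (SE 0.14, adjusted p = 0.0006) and the transcription factor Cebpa at 0.54 (SE 0.16, adjusted p = 0.0269). The 6 cDC2 markers, one of which is Flt3, summed to 356 to 530 CPM under isotype and 202 to 286 CPM under CD40 in these cells, without overlap, and their part was not tested.

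In B2m-null tumours 9 were called higher and 4 lower under CD40, or 46.4% against 32.3%, with a median of -0.06 against -0.02. Flt3, with 62 counts under isotype, had 0 under CD40, at least 15.7-fold lower when the group total of 0 is set to the 3 counts it allows. The 6 cDC2 markers summed to 272 to 810 CPM under isotype and 174 to 333 CPM under CD40 here, and their part was not tested either. The feedback inhibitors Socs1 and Socs3 rose, by log2 values of 1.46 (SE 0.41, adjusted p = 0.0150) and 0.85 (SE 0.15, adjusted p = 0.0007).

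Between genotypes under isotype, 7 of the 28 were called, all lower in B2m-null tumours, or 25% against 8.13%, with a median of -0.03 against -0.0015. They included Socs1 at -1.69 (SE 0.39, adjusted p = 0.0212) and the phosphatase Ptpn6 at -0.74 (SE 0.10, adjusted p = 0.0013). Under CD40 only Kitl, the ligand of Kit, was called between genotypes (-0.86, SE 0.27, adjusted p = 0.0463), or 3.57% against 11%.

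In CD8 T-like cells 24 of the 33 were tested. Under CD40 in control tumours 9 were called higher and 4 lower, or 54.2% against 39.9%, with a median of 0.23 against -0.01. The largest were the receptor Kit at -2.43 (SE 0.84, adjusted p = 0.0358), the STAT5 target kinase Pim2 at 2.25 (SE 0.26, adjusted p = 7.2e-07) and the growth factor Flt3l at 1.53 (SE 0.22, adjusted p = 9.6e-06). The Gzmf and Ifng cluster made up 77.3% of this class in control tumours under isotype and 15.1% under CD40. Values of these pathway genes within the clusters are not given, and the part of that shift in them was not tested. In B2m-null tumours 2 were called higher and 2 lower, or 16.7% against 9.41%, led by Socs3 at 2.01 (SE 0.32, adjusted p = 0.0004), Socs2 at -1.88 (SE 0.45, adjusted p = 0.0101) and Socs1 at 0.93 (SE 0.26, adjusted p = 0.0250). Between genotypes, Ptpn6 was called under isotype (-1.12, SE 0.19, adjusted p = 0.0075) and Pim2 under CD40 (-0.82, SE 0.22, adjusted p = 0.0176), 1 gene of 24 each, or 4.17% against 0.295% and 12.1%.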

How the data were processed

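Gene and hashtag counts of UMIs per barcode were deposited by the authors for 8 lanes. Per the submitters' processing notes, Cell Ranger 3.0.0 and bcl2fastq 2.20.0.422 were used with build mm10 (GRCm38). The 7 genes and all lists were chosen with earlier results of these data known. The genes named are these 7, the 5 most similar to each over classes, and the 3 pathway genes of largest change among those called. Among those, 1 gene is not reported here.

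Cells needed at least 200 genes, at most 10% mitochondrial counts and no second hashtag more than 2.5 SD above background, which marked 8.30% of barcodes as doublets. Doublets within 1 mouse carry 1 hashtag and could not be marked. Assignment needed 20 hashtag counts, and in lanes with 2 hashtags a posterior of 0.9. Control isotype replicate 1 and B2m-null isotype replicate 1 held 3 hashtags and had another rule. There the leading hashtag had to be at least 2 times the next, each relative to its background. It also had to lie more than 1.5 SD above background. The labels list 3 hashtags per pool and 6 of the lanes hold 2 of them, so 16 mice were resolved. Clustering (leidenalg 0.10.2, 2000 variable genes, 40 principal components, 20 neighbours, resolution 1) left out the 7 genes, and clusters were named by marker lists.

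Counts were summed per mouse and class, from 20 cells up, and tested with edgeR 4.0.16 (quasi-likelihood, filterByExpr, TMM scaling, all 4 groups in 1 fit), with Benjamini-Hochberg adjustment over all genes tested in a class and a threshold of 0.05. DESeq2 1.42.0, other scalings, filters, thinning, clusterings, lanes as the unit and left-out mice or pools were alternatives. The scripts were tested on simulated data. CPM are counts per 1000000 UMIs of the mouse and class. Overlap between groups was read only for the genes and marker lists given, without a share over all genes beside it. Whether replicate numbers pair the samples was examined by correlating the deviations of same-numbered pools, which could not settle it. The main fits used no pairing. P-values rest on the spread between mice, and with 2 mice in control CD40 that spread comes mostly from the other groups. The main fits held no term for the pool, so mice of 1 pool counted as separate replicates and a spread between pools was not modelled.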

Additional observations from a re-analysis of the deposited data

Results flagged for a closer look

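Of 44 groups of 4 or 5 mice examined for 1 gene in 1 class, 3 had a mouse that stood far from the rest. About 1 in 20 such groups does so by chance. Groups with fewer mice, among them all of control CD40, were not examined. Csf2rb in cDC2-like cells was 248 CPM in mouse 2 of control isotype pool 1, against 205 to 213 CPM in the other 4 mice. Csf2rb2 in cDC2-like cells was 43.3 CPM in mouse 3 of B2m-null isotype pool 1, against 66.6 to 76.1 CPM in the others. Csf2 in CD8 T-like cells was 71.7 CPM in mouse 1 of B2m-null isotype pool 1, against 0 to 4.04 CPM in the other 3, and it came from 10 counts in 48 cells.

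The CD40 effects on Csf2ra in macrophage-like cells differed between tumour genotypes, by a log2 value of 0.58 (adjusted p = 0.0452, edgeR). It was 52.3, 52.3, 62.2 and 64.4 CPM under CD40 in B2m-null tumours and 45.3 and 45.0 CPM in control tumours. In monocyte-like and macrophage-like cells together the same difference was 0.61, with an adjusted p of 0.0535 (edgeR). Fits with mice or pools left out were not run for macrophage-like cells alone, and the value with library totals is not given here.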

How the results depend on the processing

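Counts below are of the 7 genes called. The share of all genes called under each alternative is not given beside them and can also differ, so a moved count is not a result about the 7 genes. In monocyte-like and macrophage-like cells under CD40, 1 was called in control tumours, with 0 to 2 when a pool, lane or mouse was left out. In B2m-null tumours 1 was called, with 2 after joining the Nos2 and Ly6i cluster, 0 with lanes as the unit and all cells, 0 after thinning cells to 2000 UMIs, and 0 to 2 with a pool or mouse left out. With the replicate block, control CD40 left out, it was 0 (Csf2ra log2 0.36, adjusted p = 0.0670). Same-numbered pools deviated with correlations of 0.175, 0.090 and 0.050 in monocyte-like and macrophage-like cells. In CD8 T-like cells the correlations were 0.127, 0.125 and -0.059. With so few pools per group, these values cannot tell whether same-numbered pools shared a batch. Between genotypes under CD40, 0 became 1 after thinning and 0 to 1 with samples left out. In CD8 T-like cells under CD40 in control tumours, 1 became 2 without a filter on low counts, 0 with lanes as the unit, also with all cells, and 3 at clustering resolution 2, and ran from 0 to 3 with samples left out. There, 0 became 1 without the filter under CD40 in B2m-null tumours and between genotypes under isotype, and ran from 0 to 1 with samples left out between genotypes under either antibody. For the difference of the CD40 effects, 0 became 1 with DESeq2, 1 after joining the cluster (Csf2ra), 1 with a stricter cell filter (500 genes, 5% mitochondrial), and 1 after thinning, and ran from 0 to 2 with samples left out. Single classes beside CD8 T-like cells gave 2, and 5 with lanes as the unit. Of the steps in class order 5 of 98 passed, 5 of 77 with at least 50 cells and 5 of 91 after thinning. No result changed direction while called. Csf1 in control tumours kept its call in all 11 alternatives other than left-out samples (log2 -2.15 to -1.05). Joining the cluster, library totals without scaling factors and single-cluster fits were added after seeing the data. The causes of these moves were not tested. The highest Csf2 level in CD8 T-like cells of B2m-null tumours under isotype rests on 48 cells.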
